A study of Bos taurus with 147 samples.

Results

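Respiratory complexes I and III are enzymes of the mitochondrial inner membrane. Complex I takes electrons from NADH and passes them to coenzyme Q, and complex III passes them from coenzyme Q to cytochrome c, and both pump protons that drive ATP synthase. Most of their subunits are encoded in the nucleus and imported, and skeletal muscle fibres depend on the chain for sustained work. The 10 nuclear genes described here were taken by name: NDUFA6, NDUFB3, NDUFB9, NDUFB11 and NDUFV3 of complex I, CYC1, UQCRC1, UQCR11 and UQCRQ of complex III, and COQ8A, an atypical kinase of the mitochondrion needed to make coenzyme Q. They are 10 of the 976 genes that stand under a single name on the array, and they were found through 26 of its 21168 elements.

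The muscle was longissimus of fetal and newborn calves that Hereford dams carried to Piedmontese or Wagyu sires. The Piedmontese sires were homozygous for a missense allele of GDF8, the gene of myostatin, which the Wagyu sires did not carry. Piedmontese-sired and Wagyu-sired muscle was taken at birth and at 3 fetal ages, d 60, d 135 and d 195, and compared on 25 two-colour cDNA arrays, each with 1 group in Cy5 and another in Cy3. The methods name 3 animals per group. A single sire stood behind several of the groups, including every d 60 fetus of a breed. The Piedmontese-sired fetuses of d 195 included a pair of twins. Every newborn calf was female, whereas the d 135 and d 195 groups held both sexes. A change from those stages to birth therefore also sets mixed sexes against females. Tissue of d 60 was the hardest to free of skin. The paper also proposes that amplifying the RNA may have biased a sample of that stage. For these reasons its discussion focuses on the later stages. All changes from d 60 given below, and the differences between sire breeds in them, use d 60 as the baseline. A further 20 arrays compared longissimus of Piedmontese × Hereford and Wagyu × Hereford cattle at time points called T1, T2 and T3, and 1 array carried Piedmontese × Hereford muscle of T1 in both dyes. The labels give no age for T1 to T3.

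Values are log2 ratios of 1 group over the other, centred on the median of each array, and a positive ratio over stages means a higher level at the later stage. The direction is likely rather than certain, since it rests on the dye labels and on the loop drawn for the design. In the fetal loop the earlier stage was in Cy5 along the Piedmontese side and the later stage along the Wagyu side, so a dye effect enters the sides with opposite sign, and it was removed only through a dye term in the model. That term ran from −0.19 for UQCRC1 to 0.06 over the members. Arrays of 1 fetal link correlated at 0.06 to 0.73 over all features, apart from Piedmontese over Wagyu at birth, where array 1 correlated with arrays 2 and 3 at −0.20 and 0.03. All 10 members had values on all 25 fetal arrays and all 20 later arrays. By the study's methods each fetal group came from 3 animals, fewer than the arrays each group was on, and which animal an array number stands for was not given in the sources used here. For T1 to T3 nothing states whether the arrays carried separate animals. The p-values therefore measure the spread between arrays, which may be partly technical.

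From d 60 to birth 9 of the 10 genes rose and NDUFV3 fell in the mean of both sire breeds. CYC1 rose most, 19.4-fold (log2 4.28 ± 0.34, SE), followed by COQ8A at 14.9-fold (log2 3.89 ± 0.39). The other 7 that rose did so by 1.57-fold to 2.02-fold. By limma with Benjamini-Hochberg adjustment, 22.6% of the 16659 features tested were higher at birth and 25.7% lower. The median over the members was 0.91 on the log2 scale, and over all features −0.07. CYC1 and COQ8A belong to the genes that the study itself listed as rising on these arrays, and NDUFB3 to its list for sire breed, so their values here are no independent evidence. The study's own ratios of birth over d 60 for CYC1 and COQ8A, from signal intensities and another model, were smaller than those given here. CYC1 and COQ8A each rest on 1 cDNA clone. Over the fetal arrays the 2 elements of CYC1 correlated with each other at 0.987, and CYC1 correlated with MYOZ1, a gene of muscle fibres, at 0.986. Whether the CYC1 clone measured CYC1 alone was not tested. The 9 and 1 held whichever array was left out, and without centring the arrays 4 rose, CYC1, COQ8A, NDUFB9 and UQCR11, and NDUFV3 fell.

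**Figure D1:**
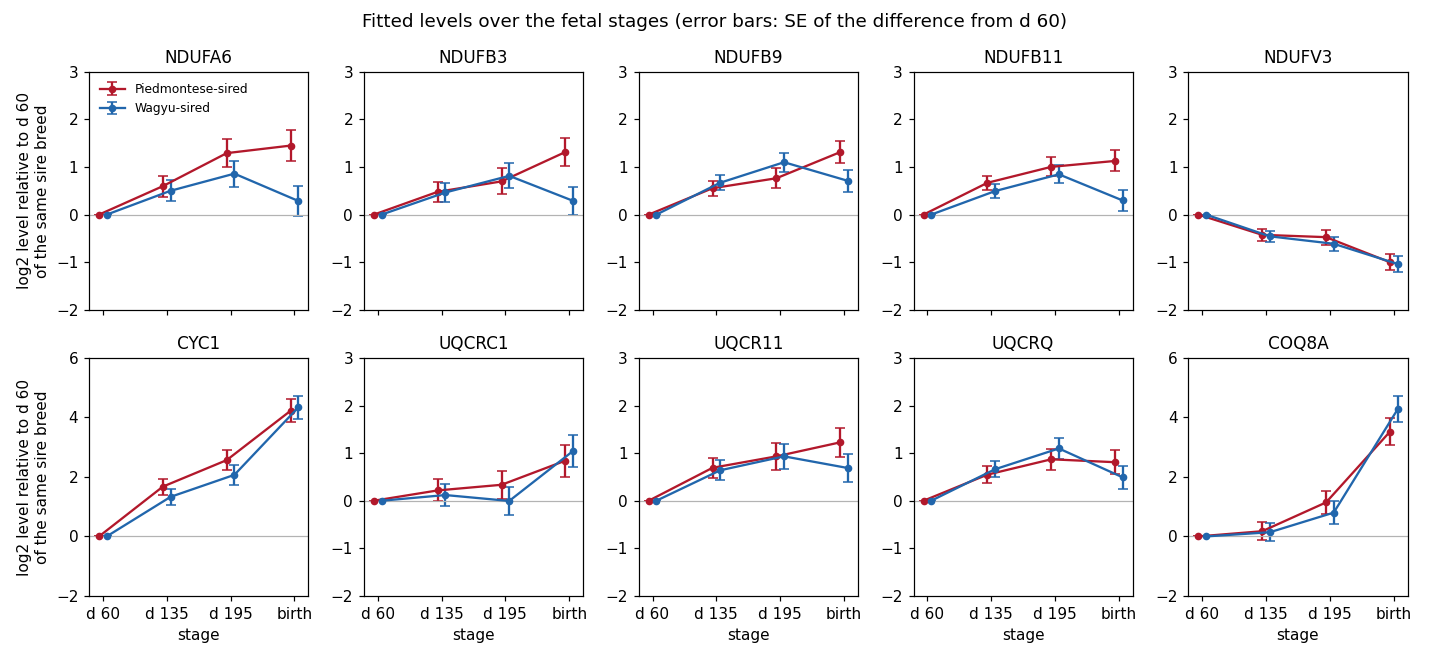
Fitted log2 level of each gene over the 4 stages relative to d 60 of the same sire breed, with Piedmontese-sired in red and Wagyu-sired in blue and error bars giving the SE of the difference from d 60. CYC1 and COQ8A, on a taller axis, reach 4.22 and 3.52 in Piedmontese-sired and 4.34 and 4.27 in Wagyu-sired muscle, NDUFV3 falls to −1.0 and −1.04, and the remaining genes stay below 1.5.

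Of complex I, NDUFB3, NDUFB9 and NDUFB11 are accessory subunits of the membrane arm, and NDUFA6 is an accessory subunit beside the peripheral arm. NDUFB9 rose 2.02-fold from d 60 to birth (log2 1.01 ± 0.20, adjusted p = 0.000304, limma), NDUFA6 1.83-fold (0.87 ± 0.28, adjusted p = 0.0152), NDUFB3 1.74-fold (0.80 ± 0.27, adjusted p = 0.0176) and NDUFB11 1.64-fold (0.71 ± 0.19, adjusted p = 0.00459). NDUFV3, an accessory subunit of the module that binds NADH, fell to 0.494 of its d 60 level (−1.02 ± 0.15, adjusted p = 1.2e-05). It was the only member that fell in this mean, and it fell within each sire breed, at −1.0 ± 0.17 in Piedmontese-sired and −1.04 ± 0.17 in Wagyu-sired muscle.

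Of complex III, CYC1 is cytochrome c1, the haem subunit that hands electrons to cytochrome c, and UQCRC1 is a core subunit, while UQCR11 and UQCRQ are small subunits. UQCR11 rose 1.94-fold (log2 0.96 ± 0.27, adjusted p = 0.0062), UQCRC1 1.92-fold (0.94 ± 0.29, adjusted p = 0.0115) and UQCRQ 1.57-fold (0.65 ± 0.22, adjusted p = 0.0195) from d 60 to birth. UQCRC1 is the least secure of these. Its elements come from a pair of cDNA clones whose values correlated at 0.36 to 0.56 over arrays, and 87 of 100 values were usable, against all values for each other member. Without its second clone the rise was 1.16 ± 0.33, and with ratios at the upper limit of the table kept, instead of being left out, it was 0.00 ± 0.78.

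The steps between stages were unequal. From d 60 to d 135, 7 members rose and NDUFV3 fell in the mean of both sire breeds (14.1% of features higher, 17.1% lower). CYC1 rose by 1.50 ± 0.20, UQCR11 by 0.67 ± 0.16, NDUFB9 by 0.61 ± 0.12, UQCRQ by 0.60 ± 0.13, NDUFB11 by 0.58 ± 0.11, NDUFA6 by 0.55 ± 0.17 and NDUFB3 by 0.47 ± 0.16, all on the log2 scale. NDUFV3 fell by 0.44 ± 0.09. COQ8A and UQCRC1 were at 0.16 ± 0.23 and 0.17 ± 0.17 and did not pass the test.

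In this first step NDUFB9 gave 0.52, 0.84 and 0.57 on the Piedmontese-sired arrays and 0.57, 0.56 and 0.62 on the Wagyu-sired arrays, in the order of array numbers 1, 2 and 3. NDUFV3 gave −0.40, −0.62 and −0.45 on the Piedmontese-sired and −0.24, −0.44 and −0.49 on the Wagyu-sired arrays. Every array thus lay above 0 for NDUFB9 and below 0 for NDUFV3, and the sire breeds overlapped for both. NDUFA6 ranged more widely, with 0.185, 0.32 and 1.41 in Piedmontese-sired and 0.184, 0.56 and 0.63 in Wagyu-sired muscle. CYC1 gave 2.34, 1.90 and 0.92 in Piedmontese-sired and 0.93, 1.80 and 1.13 in Wagyu-sired muscle, and both genes were above 0 on every array. Within Piedmontese-sired muscle 6 members rose and 1 fell (11.6% of features higher, 15.2% lower), and within Wagyu-sired muscle 4 rose and 1 fell (6.84% higher, 4.97% lower). Without array 2 of the Piedmontese-sired link 2 members rose there, and in Wagyu-sired muscle none rose without array 2 of its link and 1 without array 3.

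From d 135 to d 195, 5 members rose in the mean of both sire breeds (10.6% of features higher) and none fell (6.22% lower): CYC1 by 0.82 ± 0.19, COQ8A by 0.81 ± 0.22, NDUFA6 by 0.53 ± 0.16, UQCRQ by 0.38 ± 0.12 and NDUFB11 by 0.34 ± 0.11. COQ8A gave 1.42, 1.28 and 0.73 on the Piedmontese-sired and 0.36, 0.40, 0.37 and 0.82 on the Wagyu-sired arrays, all above 0. No member passed the test within either sire breed alone (4.14% higher and 0.81% lower in Piedmontese-sired, 5.89% and 2.46% in Wagyu-sired muscle), where 4 and 5 members had an unadjusted p under 0.05. The split of calls here moved with the scaling of the arrays, since 63% of the calls in the mean were higher, against 44.1% without centring. Leaving out 1 array at a time gave 1 to 6 rising members in the mean, with 1 when array 1 of the Piedmontese-sired link was left out, 2 without its array 2 or array 4 of the Wagyu-sired link, and 3 without array 1 or 2 of that Wagyu-sired link.

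From d 195 to birth the genes parted. COQ8A rose 7.58-fold (log2 2.92 ± 0.23, adjusted p = 3.46e-09), CYC1 3.90-fold (1.96 ± 0.20, adjusted p = 7.2e-08) and UQCRC1 1.72-fold (0.78 ± 0.17, adjusted p = 0.000796) in the mean of both sire breeds, while NDUFV3 fell by 0.47 ± 0.09 and UQCRQ by 0.33 ± 0.13 (26.7% of features higher, 25.8% lower). The other 5 members lay between −0.21 and 0.08 in that mean. In this mean COQ8A thus had most of its fitted rise in the last step, and the complex I subunits that rose over the whole interval had theirs before d 195. Within Piedmontese-sired muscle NDUFB3 and NDUFB9 rose after d 195 as well. The fall of UQCRQ in the mean was lost without array 3 of the Piedmontese-sired link or without array 1 or 2 of the Wagyu-sired link.

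That mean covered unlike values of the sire breeds. In Piedmontese-sired muscle 4 members rose from d 195 to birth, CYC1 by 1.66 ± 0.27, COQ8A by 2.38 ± 0.31, NDUFB3 by 0.62 ± 0.21 and NDUFB9 by 0.55 ± 0.16, and NDUFV3 fell by 0.53 ± 0.12 (20.7% of features higher, 18.8% lower). In Wagyu-sired muscle CYC1 rose by 2.27 ± 0.27, COQ8A by 3.47 ± 0.31 and UQCRC1 by 1.05 ± 0.23, and 6 members fell (21.7% higher, 22.9% lower). These were UQCRQ at −0.61 ± 0.17, NDUFA6 at −0.57 ± 0.22, NDUFB11 at −0.55 ± 0.15, NDUFB3 at −0.53 ± 0.21, NDUFV3 at −0.42 ± 0.12 and NDUFB9 at −0.39 ± 0.16, the last with an adjusted p just under the threshold. Scaling each array by its spread left 0 of these 6 falls past the threshold, and leaving out 1 array left 2 to 6, with 2 when array 1 of the Wagyu-sired link was left out and 3 without its array 2, array 2 of the breeds at d 60 or array 3 of Wagyu-sired d 135 over d 60. In Piedmontese-sired muscle the rises of NDUFB3 and NDUFB9 were lost without array 3, which left 2 members rising.

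NDUFB3 gave 0.25, 0.66 and 1.05 on the Piedmontese-sired arrays of birth over d 195 and −0.61, −0.91 and −0.16 on the Wagyu-sired arrays. NDUFB9 gave 0.41, 0.66 and 0.84 on the Piedmontese-sired and −0.49, −0.63 and −0.31 on the Wagyu-sired arrays. For both genes every Piedmontese-sired array lay above 0 and every Wagyu-sired array below it. NDUFA6 gave −0.13, 0.62 and 0.10 on the Piedmontese-sired and −0.51, −0.91 and −0.42 on the Wagyu-sired arrays. NDUFB11 gave 0.23, −0.12 and 0.33 on the Piedmontese-sired and −0.71, −0.66 and −0.35 on the Wagyu-sired arrays. The sire breeds did not overlap for these 4 genes, as for 5.41% of features with the Piedmontese-sired arrays higher. NDUFV3, at −0.55, −0.53 and −0.69 in Piedmontese-sired and −0.17, −0.47 and −0.45 in Wagyu-sired muscle, did not overlap in the opposite order, as for 10% of features. These single values still hold the dye effect. The dye term was also taken off, a step added after the values were seen and run for the members only, so no share of features stands beside it. With it taken off the 4 genes did not overlap either. NDUFV3 lay between −0.62 and −0.47 in Piedmontese-sired and between −0.53 and −0.23 in Wagyu-sired muscle and overlapped. CYC1, whose single values overlapped, then lay between 0.85 and 2.18 in Piedmontese-sired and between 2.23 and 2.29 in Wagyu-sired muscle. The test of the difference between the sire breeds in this step found no feature at all past the threshold, with 2897 features and 6 members at an unadjusted p under 0.05. NDUFB3 was at 1.14 ± 0.27 (adjusted p = 0.101, limma), NDUFB9 at 0.94 ± 0.21 (adjusted p = 0.0799) and COQ8A at −1.09 ± 0.40 (adjusted p = 0.205). Without array 3 of the Wagyu-sired link 5 members passed, without array 1 of the breeds at birth 2, and without their array 1 at d 60 1. For these reduced fits no share of all features is given.

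**Figure D2:**
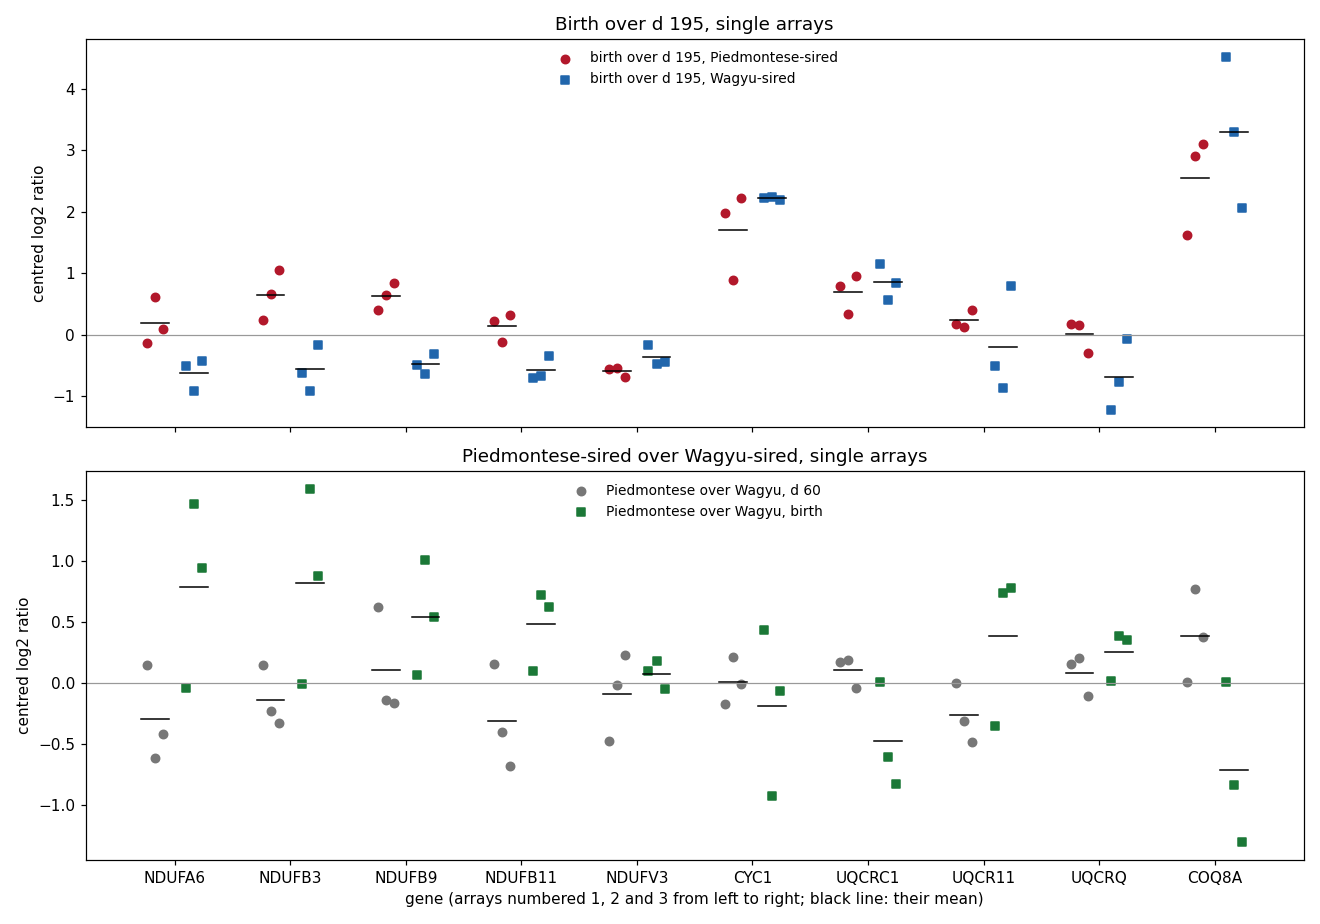
Centred log2 ratio of each gene on single arrays, numbered 1 to 3 from left to right within each cluster, with a black line at their mean. The upper panel gives birth over d 195 in Piedmontese-sired (red circles) and Wagyu-sired muscle (blue squares), where NDUFB3 and NDUFB9 lie on opposite sides of 0, and the lower panel gives Piedmontese over Wagyu at d 60 (grey circles) and birth (green squares), where array 1 at birth lies near 0 for most of the genes.

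Over the whole interval from d 60 to birth, the fitted change differed between sire breeds for 3 complex I genes. In this loop that difference equals the fitted Piedmontese over Wagyu value at birth minus that at d 60. It rests on the arrays that set the breeds directly against each other, and the stage arrays enter its value only through the dye term. In Piedmontese-sired muscle all the members but NDUFV3 rose (9 higher and 1 lower, against 22.1% and 22.9% of features), and NDUFA6 was at 1.45 ± 0.32, NDUFB3 at 1.32 ± 0.30, NDUFB9 at 1.31 ± 0.23, UQCR11 at 1.23 ± 0.31 and NDUFB11 at 1.13 ± 0.22. In Wagyu-sired muscle 4 rose and NDUFV3 fell (20.2% higher, 24.7% lower). There NDUFB9 rose by 0.71 ± 0.23, while NDUFA6 at 0.29 ± 0.32, NDUFB3 at 0.29 ± 0.30, NDUFB11 at 0.30 ± 0.22, UQCR11 at 0.69 ± 0.30 and UQCRQ at 0.49 ± 0.25 did not pass. The difference, Piedmontese minus Wagyu, was 1.16 ± 0.29 for NDUFA6 (adjusted p = 0.0188, limma), 1.03 ± 0.27 for NDUFB3 (adjusted p = 0.0236) and 0.83 ± 0.20 for NDUFB11 (adjusted p = 0.0159), against 5.27% of features higher in this test and 7.93% lower. NDUFB9 at 0.60 ± 0.21 (adjusted p = 0.0564), UQCR11 at 0.54 ± 0.28, UQCRQ at 0.32 ± 0.23 and NDUFV3 at 0.04 ± 0.16 did not pass. CYC1 at −0.11 ± 0.35 and COQ8A at −0.75 ± 0.40 did not pass either.

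The 3 differences rest on few arrays. Without array 3 of Piedmontese over Wagyu at d 60, or array 3 at birth, no member passed, and without array 2 at either stage 1 did, while without array 1 at birth, or without array 3 of Wagyu-sired birth over d 195, 5 did. NDUFA6 stayed between 0.91 and 1.47 in all of these fits, for which no share of all features is given. Markers of other cells moved with the same contrast. Of 7 measured connective tissue genes, COL3A1 (−1.20 ± 0.21) and FN1 (−0.85 ± 0.26) were lower and none higher, with a median of −0.77, and the 7 ranged from −1.20 to −0.18. Of 8 muscle fibre genes none passed, and of 7 adipocyte genes SCD was lower (−1.92 ± 0.42). The part of these tissues in the result was not tested. In bulk muscle, fewer cells of a type and less RNA per cell cannot be told apart.

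Set directly against each other on the same arrays, the sire breeds did not differ past the threshold in any member at d 60 or birth. These arrays also gave the differences above, so the results are not separate. Over all features 8 were higher at d 60 and none lower (0.048% and 0%), and at birth 14 were higher and 33 lower (0.084% and 0.198%), with 2022 features and 1 member at an unadjusted p under 0.05 at d 60 and 3333 features and 4 members at birth. At birth Piedmontese over Wagyu was 0.86 ± 0.21 for NDUFB3 (1.81-fold, adjusted p = 0.068, limma), 0.83 ± 0.22 for NDUFA6 (1.78-fold, adjusted p = 0.0791), 0.63 ± 0.16 for NDUFB9 (1.54-fold, adjusted p = 0.0712) and 0.50 ± 0.15 for NDUFB11 (1.42-fold, adjusted p = 0.107). COQ8A was at −0.54 ± 0.31 and CYC1 at −0.14 ± 0.27.

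Array 1 at birth decided these calls. NDUFA6 gave −0.04, 1.46 and 0.94 on arrays 1, 2 and 3, NDUFB3 −0.01, 1.59 and 0.88, and NDUFB11 0.10, 0.72 and 0.63, so array 1 was near 0 where the others were high. Without it all 4 passed, NDUFB3 at 1.22 (adjusted p = 0.012), NDUFA6 at 1.19 (adjusted p = 0.0127), NDUFB9 at 0.83 (adjusted p = 0.0159) and NDUFB11 at 0.67 (adjusted p = 0.0219). Without array 3 of Wagyu-sired birth over d 195, 3 members passed. The share of all features past the threshold in these reduced fits is not given here, so the counts of members lack that reference. With array weights, where array 1 at birth had a weight of 0.36, 1586 features were higher and 854 lower at birth. At d 60 the same genes were on the other side of 0 on arrays 2 and 3 and above it on array 1, with 0.15, −0.61 and −0.42 for NDUFA6, 0.15, −0.23 and −0.33 for NDUFB3 and 0.16, −0.40 and −0.68 for NDUFB11. At d 135 and d 195 the sire breeds met only through chains of arrays, and no feature passed (0%), with 266 and 443 features and no member at an unadjusted p under 0.05. At birth the connective tissue gene COL3A1 was lower in Piedmontese-sired muscle (−0.94 ± 0.16, adjusted p = 0.023), the 7 measured genes of that list had a median of −0.48 and ranged from −0.94 to −0.39, and none of 8 muscle fibre genes passed. Their part in these values was not tested.

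Over the 25 fetal arrays the members fell into blocks by Pearson's r of their log2 ratios, Cy5 over Cy3 as deposited, a description in which genes share arrays, dyes and centring. NDUFA6, NDUFB3, NDUFB9, NDUFB11, UQCR11 and UQCRQ correlated with each other at 0.65 to 0.93. CYC1, UQCRC1 and COQ8A correlated with each other at 0.69 to 0.78, and with the 6 small subunits at −0.29 to 0.40. NDUFV3 correlated with the other 9 at −0.86 to −0.25. The complex a subunit belongs to thus did not order the blocks, since both hold subunits of complex III.

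Among all named genes, the one most like CYC1 was MYOZ1, a Z-disc protein of fast fibres (r = 0.986), and the one most like COQ8A was MYOT, another Z-disc protein (r = 0.935). UQCRC1 was most like MDH2, the mitochondrial malate dehydrogenase (r = 0.806). The small subunits were most like genes of the later respiratory chain, of their own complex or of the ribosome, with NDUFB3 like ATP5PF (r = 0.938), NDUFB9 like NDUFB3 (r = 0.928), NDUFB11 and NDUFA6 like ATP5E (r = 0.922 and 0.876), UQCRQ like COX6A2 (r = 0.866) and UQCR11 like RPLP1 (r = 0.920). NDUFV3 was most like LOC784131 (r = 0.900). Each r is over 25 arrays.

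Other genes of the chain and the citric acid cycle rose in part from d 60 to birth. Of 122 listed, 32 were measured, of which 17 rose over that interval and none fell (22.6% of all features higher, 25.7% lower). Their median was 0.68 on the log2 scale. Both measured subunits of complex II, succinate dehydrogenase, rose, SDHA by 1.24 ± 0.30 and SDHD by 0.71 ± 0.14. Of the citric acid cycle 4 of 5 rose, with MDH2 highest at 1.62 ± 0.28, while IDH3A, the lowest at 0.59 ± 0.27, did not pass. Of cytochrome c oxidase 4 of 8 rose, and COX7B was highest at 1.72 ± 0.23 and COX7A2 lowest at −0.90 ± 0.46. Of ATP synthase 5 of 9 rose, with ATP5F1C highest at 0.98 ± 0.21 and ATP5MG lowest at −0.12 ± 0.25. Of the other complex I genes 1 of 6 rose, NDUFB4 at 0.65 ± 0.23, and the lowest was NDUFB8 at −0.58 ± 0.37. Of the other genes of coenzyme Q synthesis COQ10A rose by 1.60 ± 0.41 and COQ5 was at −0.41 ± 0.33. None of the 12 other complex III genes and none of the 16 mitochondrially encoded entries stood under its own name. CYC1 and COQ8A thus had larger log2 changes than any of the 32.

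**Figure D3:**
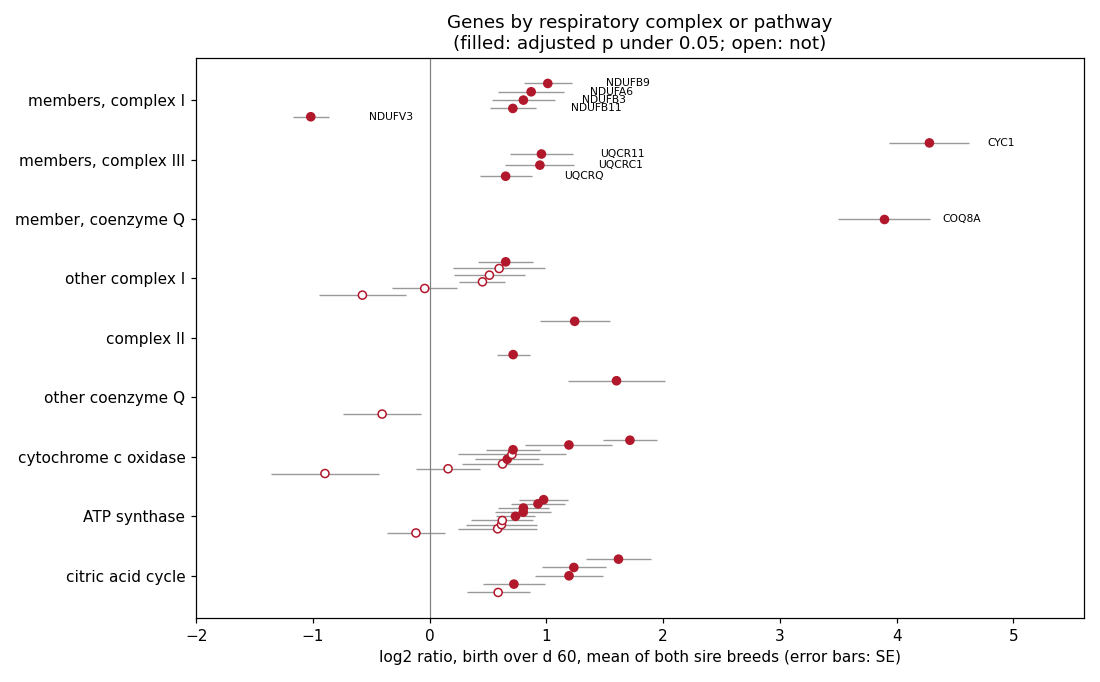
Log2 ratio of birth over d 60, mean of both sire breeds, for each measured gene by complex or pathway, with the SE as error bar and filled points for genes past the threshold. CYC1 at 4.28 and COQ8A at 3.89 stand to the right of all the others, of which MDH2 at 1.62 and COX7B at 1.72 come nearest, and NDUFV3 at −1.02 stands farthest left.

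From d 195 to birth 14 of the 32 rose and none fell in Piedmontese-sired muscle (20.7% of all features higher, 18.8% lower). In Wagyu-sired muscle 15 rose and 6 fell (21.7% of all features higher, 22.9% lower). The medians of the 32 were 0.46 and 0.45. In the test of the difference between the sire breeds in that step none of the 32 was higher and none lower, with a median of 0.09. The 6 were ATP5MG, ATP5PF and ATP5IF1 of ATP synthase, at −0.88 ± 0.19, −0.60 ± 0.21 and −0.46 ± 0.18, and COX6C, COX5B and COX4I1 of cytochrome c oxidase, at −0.66 ± 0.21, −0.57 ± 0.21 and −0.45 ± 0.18. In the test of Piedmontese minus Wagyu over d 60 to birth, 6 of the 32 were higher and 2 lower (5.27% of all features higher, 7.93% lower). ATP5IF1 at 1.30 ± 0.24, COX6C at 1.17 ± 0.28, ATP5PF at 1.11 ± 0.27, COX5B at 0.87 ± 0.28, ATP5MG at 0.79 ± 0.25 and NDUFA7 at 0.61 ± 0.20 were the higher ones, and ATP5F1A, a catalytic-head subunit of ATP synthase, at −1.28 ± 0.31 and IDH3A at −0.96 ± 0.27 the lower ones. These genes were named after their values were seen.

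Markers of muscle and of other tissues changed over the stages, and as ratios they show changes, not whether the cells were present. All 8 measured muscle fibre genes of 10 rose from d 60 to birth, from TNNT3 at 1.12 ± 0.19 to CKM at 3.63 ± 0.41, with a median of 2.50, and all 7 connective tissue genes fell, from FN1 at −4.67 ± 0.26 to DCN at −1.97 ± 0.21, with a median of −3.36. Of 7 measured adipocyte genes LPL rose and SCD and PLIN1 fell, of 3 endothelial and mural genes EGFL7 fell, and of 5 immune genes CD74 and S100A8 rose and CTSS fell. None of 8 blood and 6 epidermis markers was measured by name. The part of a change in tissue composition in the members' values was not tested.

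In the later cattle 2 members passed a test between time points, CYC1 and NDUFA6. CYC1 was the only member higher at T2 than at T1 in the mean of both crosses, 1.65-fold (log2 0.72 ± 0.13, adjusted p = 0.00545, limma; 2.79% of 17253 features higher, 4.06% lower). It gave 0.54 and 1.03 on the Piedmontese × Hereford arrays and 0.69 and 0.61 on the Wagyu × Hereford arrays, all above 0 and overlapping between crosses. CYC1 was also the only member lower at T3 than at T2 (−0.68 ± 0.13, adjusted p = 0.00363; 3.98% of features lower), with −0.48 and −0.85 on the Piedmontese × Hereford and −0.38 and −1.0 on the Wagyu × Hereford arrays. T3 over T1 was 0.04 ± 0.18, so the level at T2 was the highest of the 3. The rise in T2 over T1 and the fall in T3 over T2 passed in each cross too, with 0.76 ± 0.15 and −0.70 ± 0.15 in Piedmontese × Hereford (1.95% and 3.43% of features higher and lower at T2 over T1, 2.13% and 1.63% at T3 over T2) and 0.68 ± 0.15 and −0.66 ± 0.15 in Wagyu × Hereford cattle (1.96% and 1.38%, then 6.03% and 3.63%). Within a cross each stage link had 2 arrays, and leaving out array 1 of the Wagyu × Hereford link of T1 and T2 took the call of T2 over T1 from the mean (0.64 to 0.83 over all such fits). The calls within a cross were lost too without 1 or more single arrays of the stage links. At T2 over T1, in the mean of both crosses, MB at 0.74 ± 0.10 was the only one of 8 muscle fibre genes to rise (median 0.17, from 0.15 to 0.74), none of 7 connective tissue genes passed (median −0.07), and SCD at 0.86 ± 0.16 and FABP4 at 0.56 ± 0.13 of 7 adipocyte genes and CNN1 at 0.52 ± 0.11 of 3 endothelial and mural genes rose. None of 5 immune genes passed. Their part in the values of CYC1 was not tested.

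NDUFA6 was higher at T3 than at T2 (0.56 ± 0.17, adjusted p = 0.0438, 6.73% of features higher), on 4 of 4 arrays, with 0.35 and 0.64 in Piedmontese × Hereford and 0.89 and 0.35 in Wagyu × Hereford cattle. Leaving out a single array lost that call for 10 of the 20 arrays: both Piedmontese × Hereford arrays of T1 and T2, both arrays of T2 and T3 in each cross, breed arrays 1, 2 and 3 at T2 and breed array 2 at T3. NDUFB3 at 0.45 ± 0.15 (adjusted p = 0.0703) and UQCR11 at 0.54 ± 0.20 (adjusted p = 0.092) did not pass. No member passed in T3 over T1 (0.197% of features higher, 0.562% lower). Of 7 connective tissue genes 5 were lower at T3 than at T2, with a median of −0.87, and of 8 muscle fibre genes MB (−0.60 ± 0.10) and MYH1 (−0.40 ± 0.11) were lower. Their part in these values was not tested.

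No member passed the test between the crosses at T1 (0.394% of features higher, 0.359% lower), T2 (0.922% and 2.36%) or T3 (0.319% and 0.238%). COQ8A was nearest, with Piedmontese over Wagyu at 0.56 ± 0.15 at T1 (adjusted p = 0.0969), 0.35 ± 0.14 at T2 (adjusted p = 0.223) and 0.47 ± 0.15 at T3 (adjusted p = 0.174). It gave 0.39, 0.58, 0.64 and 0.61 on the 4 arrays of T1, 0.40, 0.46, 0.15 and 0.32 on those of T2, and 0.11, 0.13, 0.99 and 0.71 on those of T3, above 0 on 12 of 12 arrays. In the mean over T1 to T3, a comparison added after the values were seen, COQ8A was 1.37-fold higher (0.46 ± 0.09, adjusted p = 0.0139, 1.56% of features higher). In that mean of T1 to T3, 4 of 7 connective tissue genes were lower, COL1A1 at −0.46, FN1 at −0.45, SPARC at −0.33 and COL1A2 at −0.31 (list median −0.31, from −0.46 to −0.02), as were ADIPOQ at −0.56 and FABP4 at −0.51 of 7 adipocyte genes. Of 8 muscle fibre genes CKM at 0.49 and MYH1 at 0.32 were higher (list median 0.14, from 0.04 to 0.49), and none of 3 endothelial and mural and none of 5 immune genes passed. Their part in the value of COQ8A was not tested. In fetal muscle at birth the same contrast for COQ8A was −0.54 ± 0.31.

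The orientation of these later breed arrays is not settled. Over all features, once turned alike, arrays 1 and 2 correlated at 0.59 and arrays 3 and 4 at 0.14 at T1, and at 0.23 and 0.40 at T3, while each of arrays 1 and 2 correlated with each of arrays 3 and 4 at −0.62 to 0.01 at T1 and at −0.49 to 0.09 at T3. At T2 no such split showed, with 0.21 for arrays 1 and 2, 0.05 for arrays 3 and 4 and −0.33 to 0.28 between the pairs. Each pair held both dye orientations by the labels. UQCR11 gave −0.74 and −1.10 on arrays 1 and 2 of T1 and 0.49 and 0.22 on arrays 3 and 4. UQCRQ gave −0.69 and −0.71 on arrays 1 and 2 and 0.33 and 0.35 on arrays 3 and 4. With arrays 3 and 4 turned the COQ8A mean was −0.11 (adjusted p = 0.833), and without them 0.34 (adjusted p = 0.097). Without arrays 3 and 4, UQCR11 at −0.87 (adjusted p = 0.00247), UQCRQ at −0.64 (adjusted p = 0.00448) and NDUFA6 at −0.57 (adjusted p = 0.0455) were lower in Piedmontese × Hereford cattle at T1. With them turned, UQCR11 at −0.61, UQCRQ at −0.51 and NDUFB3 at −0.44 were.

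**Figure D4:**
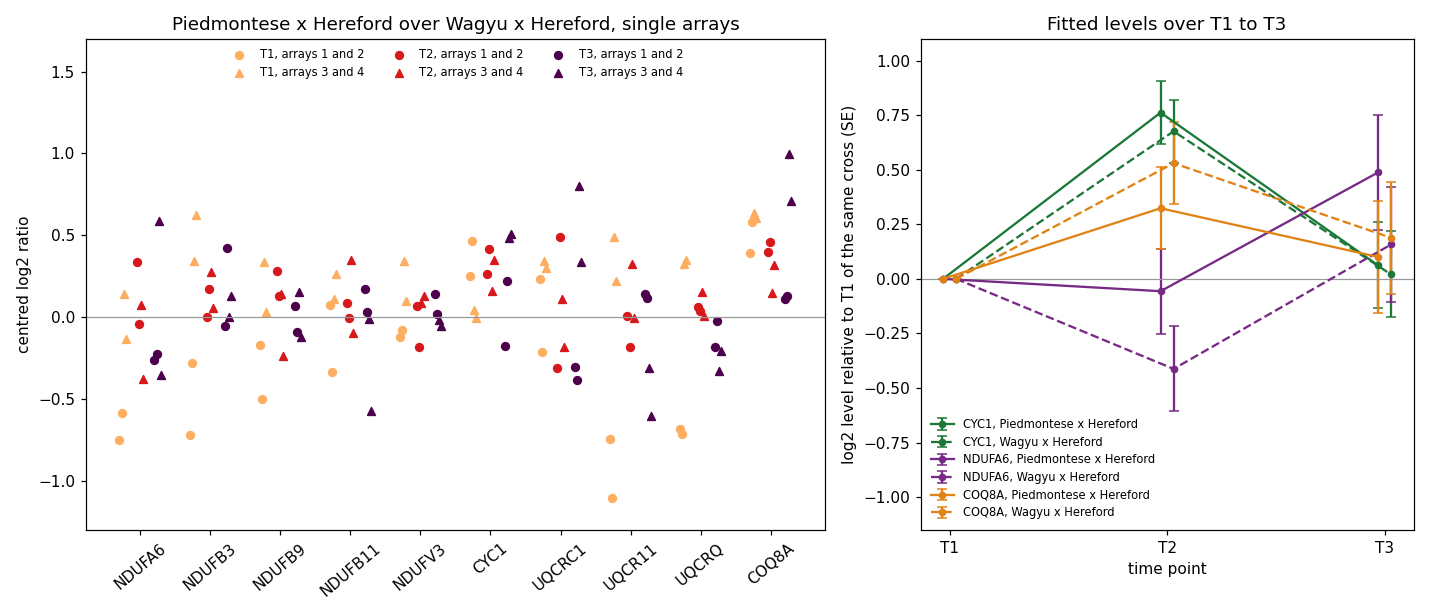
Left, centred log2 ratio of Piedmontese × Hereford over Wagyu × Hereford for each gene on single arrays at T1, T2 and T3, with circles for arrays 1 and 2 and triangles for arrays 3 and 4, where COQ8A lies above 0 on 12 of 12 arrays and UQCR11 and UQCRQ split at T1. Right, fitted log2 level of CYC1, NDUFA6 and COQ8A relative to T1 of the same cross, with the SE as error bar, where CYC1 reaches 0.76 in Piedmontese × Hereford and 0.68 in Wagyu × Hereford cattle at T2.

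On the array that carried the same muscle in both dyes, the members lay between −0.25 for NDUFB3 and 0.49 for UQCRC1 and COQ8A gave 0.33. That array was not part of the fit.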

How the data were processed

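The deposited values were log2 ratios of Cy5 over Cy3, which the authors made from cDNA arrays read on a GenePix scanner, with RNA linearly amplified before labelling. How far these ratios had been edited is not known, and array intensities were not used here. Of its 70 columns 46 were used, 24 belonged to other experiments and were not, and another table of 77 columns was not used.

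Ratios capped at 16.61 were treated as missing, at 24 to 216 elements on a fetal array and 30 to 80 on a later one. Each array was centred on its median, which lay between −0.482 and 0.465 on fetal arrays, and usable values numbered 19404 to 20771 and 20794 to 20946. Elements under 1 gene name (4490, against 188 with several and 16490 with none) were averaged per gene, and a feature needed values on 20 of the 25 or 16 of the 20 arrays, which left 16659 and 17253 features. The number of arrays limits the precision.

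Group terms with a dye intercept were fitted (limma 3.58.1, R 4.3.3), leaving 17 residual degrees of freedom in the fetal loop and 14 in the later arrays. Arrays were taken as independent although animals were used on more than 1. P-values were adjusted by Benjamini-Hochberg across features and called under 0.05. The code was tested on simulated data. Alternatives were the centring, spread scaling, the upper limit, the filter, the dye term, array weights, the element summary, a replicate block and each array left out.

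The members and gene lists were chosen with earlier results of these data known. Named genes were all the members, the genes with the highest and the lowest change from d 60 to birth in each pathway list, and for each member the named gene with the highest r. Markers and a few other genes were named after their values were seen. No sequence, build or coordinate was used here.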

Additional observations from a re-analysis of the deposited data

Results flagged for a closer look

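The difference between sire breeds in the change from d 60 to birth passed the test for NDUFA6 (1.16), NDUFB3 (1.03) and NDUFB11 (0.83), log2 Piedmontese minus Wagyu. On the later arrays, 1 of the 4 arrays of Piedmontese over Wagyu at T3 gave 0.58 for NDUFA6, while the others lay between −0.35 and −0.22. On 1 of the 4 arrays of d 195 over d 135 in Wagyu-sired muscle COQ8A was at 0.82, while the others lay between 0.36 and 0.40. These arrays stood apart by Dixon's test, which chance alone meets in about 1 of 20 groups, and 40 groups of 4 arrays were tested.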

How the results depend on the processing

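The counts of 9 members higher and 1 lower from d 60 to birth, in the mean of both sire breeds, held in every fit that left out 1 array, and 4 were higher without centring. Counts given next are of members higher unless stated. Without centring (all-feature median of birth over d 60 −0.217 against −0.066) the count was 2 against 4 for birth over d 60 in Wagyu-sired muscle, 1 against 4 for d 135 over d 60 in Wagyu-sired muscle, 2 against 5 for d 195 over d 135, and 0 against 1 for T2 over T1 in Wagyu × Hereford cattle, for T3 over T2 and for the lower count of d 135 over d 60 in Piedmontese-sired muscle. With arrays scaled by their spread it was 3 in Piedmontese-sired and 4 in Wagyu-sired muscle against 0 for d 195 over d 135, 1 against 0 for the breeds at T2, 2 against 1 in their mean over T1 to T3, and for birth over d 195 the lower counts were 1 against 2 in the mean and 0 against 6 in Wagyu-sired muscle. Requiring values on all arrays gave 1 and 2 for d 195 over d 135 in the same groups. Array weights gave 7 against 4 for d 135 over d 60 in Wagyu-sired muscle, 5 against 0 in each breed for d 195 over d 135, 4 against 0 for the breeds at birth, 5 higher and 1 lower for the difference of the breeds in birth over d 60, 6 higher and 1 lower for that in birth over d 195, 1 lower against 0 for the breeds at d 60, 3 against 1 for T3 over T2 and 1 against 0 for it in Wagyu × Hereford cattle. The cause of these moves was not tested. The all-feature median shifted by over 0.1 without centring also for birth over d 60 in Wagyu-sired muscle (−0.309 against −0.103), d 135 over d 60 in Piedmontese-sired (0.156 against 0.003) and Wagyu-sired muscle (−0.187 against −0.041), d 195 over d 135 in Piedmontese-sired (−0.289 against −0.032) and birth over d 195 in Wagyu-sired muscle (−0.13 against −0.008), the breeds at d 135 (0.367 against 0.011) and birth (0.175 against 0.008), and their differences in birth over d 60 (0.132 against 0.024) and over d 195 (0.135 against 0.008). The share of calls that were higher moved by over 10 percentage points without centring, to 34.9% against 45% for birth over d 60 in Wagyu-sired muscle, to 61.4% against 43.3% in Piedmontese-sired and 35.5% against 57.9% in Wagyu-sired muscle for d 135 over d 60, to 44.1% against 63% in the mean, 34.3% against 83.6% in Piedmontese-sired and 87.5% against 70.5% in Wagyu-sired muscle for d 195 over d 135, to 37.8% against 48.7% for birth over d 195 in Wagyu-sired muscle, to 56.9% against 39.9% for the difference in birth over d 60, to 51.8% against 36.3% for T2 over T1 and 45.8% against 56.7% for T3 over T2 in Piedmontese × Hereford cattle, to 25.5% against 52.3% for the breeds at T1 and to 55.6% against 42.9% for their difference in T3 over T1. Scaled by spread it was 68.2% and 56.5% for d 195 over d 135 in Piedmontese- and Wagyu-sired muscle, 82.8% against 100% for the breeds at d 60, and for T3 over T1 15.9% against 26% in the mean and 0% against 19.2% in Wagyu × Hereford cattle. Features higher for d 195 over d 135 were then 1148 against 690 in Piedmontese-sired and 2070 against 981 in Wagyu-sired muscle. Features lower for birth over d 195 in Wagyu-sired muscle were 1956 against 3808. With array weights 1586 features were higher and 854 lower for the breeds at birth, against 14 and 33, and 1401 and 1300 for the difference in birth over d 195, against none. For the difference in birth over d 60 they were 3130 and 2767, against 878 and 1321. Those for the breeds at d 60 were 1160 and 785, against 8 and 0. Features higher for d 195 over d 135 were 1524 against 690 in Piedmontese-sired and 1667 against 981 in Wagyu-sired muscle. For d 135 over d 60 in Wagyu-sired muscle they were 1800 against 1139. For T3 over T2 they were 1429 against 1161 in the mean and 1045 against 1041 in Wagyu × Hereford cattle.

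The labels do not tie array numbers to animals. Residuals of arrays with the same number on neighbouring links, which share a group in opposite dyes, correlated at a median of −0.12 (−0.53 to 0.45, 18 of 24 below 0), against 0.06 for other numbers (19 of 48 below 0), and same-numbered arrays over all links at −0.008. The fit has as many terms as the loop has links, so residuals sum to about 0 within a link. The value for other numbers therefore largely follows from that for the same numbers and is no separate reference. Not every pair correlated, so the numbers were not taken as pairs, and whether they mark shared animals is not settled. With the number as a replicate block the count was 3 against 5 for d 195 over d 135, the lower count 3 against 6 for birth over d 195 in Wagyu-sired muscle, and 0 against 1 for the mean of T1 to T3. That block put a constant for each number in place of the dye term. An animal shared by neighbouring links would sit in opposite dyes, so the block cannot take up shared animals. Without the dye term T3 over T2 gave 0 against 1. The following settings were chosen after seeing the data. With later breed arrays 3 and 4 turned, T2 over T1 gave 0 against 1 in Piedmontese × Hereford and 1 lower in Wagyu × Hereford cattle, T3 over T2 gave 2 in the mean, 2 in Piedmontese × Hereford and 0 lower against 1 in Wagyu × Hereford cattle, the breeds at T1 gave 3 lower, the difference of the breeds in T3 over T1 gave 2 and the mean of T1 to T3 gave 0. Without those arrays the counts were 3 lower for T2 over T1 in Wagyu × Hereford cattle, 3 and 1 for T3 over T2 in the mean and in Piedmontese × Hereford cattle, 3 lower for the breeds at T1, 1 for that difference and 0 for the mean.

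Signs turned for UQCRC1 in birth over d 60 of Piedmontese-sired muscle (−0.34 with ratios at the upper limit kept), for NDUFB3 at T1 (−0.44 with arrays turned) and for COQ8A in the mean of T1 to T3 (−0.11 with arrays turned).

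Fits with 1 array left out are given as counts of members, without the share of all features beside them. With 1 array left out, members higher ranged over 2 to 7 and members lower over 0 to 1 for d 135 over d 60 in Piedmontese-sired muscle, and over 0 to 5 and 0 to 1 in Wagyu-sired muscle. For d 195 over d 135 the range was 1 to 6 in the mean, 0 to 1 in Piedmontese-sired and 0 to 2 in Wagyu-sired muscle. For birth over d 195 it was 2 to 4 in Piedmontese-sired muscle, with 1 to 2 lower in the mean and 2 to 6 lower in Wagyu-sired muscle. For the difference of the breeds it was 0 to 5 in birth over d 60, and 0 to 5 with 0 to 1 lower in birth over d 195, and for the breeds at birth 0 to 4. For the later arrays it was 0 to 1 for T2 over T1 in the mean and in each cross, 0 to 2 with 1 to 2 lower for T3 over T2, 0 to 1 lower for it in Piedmontese × Hereford, 0 to 1 with 0 to 2 lower in Wagyu × Hereford cattle, and 1 to 2 for the mean of T1 to T3.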
